A study of Mus musculus with 4 samples.

Results

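The 33 genes described here encode the machinery that shortens mRNA poly(A) tails in the mouse, apart from the PARN family: the CCR4-NOT and PAN complexes, other relatives of the CCR4 nuclease, an RNA exonuclease, and the adaptors that bring these enzymes to chosen mRNAs. They are given by a list of gene names, and come from the 23922 genes of a table of expression differences. Of the 33 genes, 30 carry the symbol of the GENCODE annotation and 3 were matched through an older name: Rqcd1 is Cnot9, Ccrn4l is Noct, and 2610020H08Rik is Rexo5.

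The RNA came from E14 cells, a mouse embryonic stem cell line grown on gelatin with LIF. All cells were transfected with esiRNA, a mixture of short interfering RNAs cut from one long double-stranded RNA. There were 2 groups of 2 libraries: cells that received esiRNA to PNLDC1, a PARN-like exonuclease, and control cells that received esiRNA to luciferase (Luc), a sequence foreign to the mouse. Ribosomal RNA and RNA shorter than 200 nt were removed from the total RNA, and the labels name no selection for poly(A). Nothing in the labels ties a library to its own culture.

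The authors' deposited table holds 1 value a gene in each of 2 conditions, q1 and q2, which combine the libraries. No label or header says which esiRNA q1 or q2 received, so every difference below is q2 against q1 and has no direction with respect to silencing. Values are taken as FPKM (fragments per kilobase of transcript, scaled to the fragments of the library), the usual unit of such tables, though the header names none. There are no values of single libraries, hence no SD, and the deposited Cuffdiff p and q are the only test of a difference. The sources used here do not say how that test estimated the spread between the 2 libraries of a group.

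Deadenylation is the first and usually the slowest step in the decay of most mRNAs. In CCR4-NOT, the CNOT1 scaffold holds one CAF1-type nuclease (CNOT7 or CNOT8), which in turn holds one CCR4-type nuclease (CNOT6 or CNOT6L). PAN2-PAN3 is thought to trim long tails first, and proteins such as GW182, ZFP36 and Pumilio bind an mRNA or its Argonaute complex and recruit the nucleases.

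No member passed the authors' test at q under 0.05, of 20 members that were tested. Over all genes 243 of 5719 tested passed (4.25%), of which 132 had the higher value in q2 and 111 in q1. Below an unadjusted p of 0.05 by the same Cuffdiff test, 7 of 20 members were higher in q1, against 8.29% of all tested genes. They were Cnot1, Cnot2, Cnot4, Cnot6, Cnot7, Pum2 and Tnrc6a. Of these 7, 5 are subunits of CCR4-NOT, as are 10 of the 20 tested members. Higher in q2 were 2 of 20 (Zfp36l2 and Tnrc6c), against 10.5%. The lowest higher value among tested protein-coding genes was 14.0. Cnot4, Cnot7, Tnrc6a, Zfp36l2 and Tnrc6c had their smaller value below that level, so whether they were tested could depend on the condition where they were high. The median log2 ratio of the 20 tested members was -0.23, with quartiles of -0.45 and 0.00 and a range from -0.96 to 0.66, and that of all tested genes was 0.06. The q1 value was the larger in 15 of 20 tested members and in 44.6% of all tested genes.

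As background, low values fell in steps, as counts of whole fragments would: a distance of no more than 0.15 from a whole number of steps was found for 75.1% of them in q1 and for 73.1% in q2, by a step fitted to the same values. That step is worth 1 fragment in about 1320000 for q1 and in 1540000 for q2, which gives 114 and 136 read equivalents for the median tested protein-coding gene. These are estimates for whole conditions. All 12 pluripotency markers were present at tested levels: their q1 values ran from 27.5 (Klf4) to 713.9 (Pou5f1) and their q2 values from 18.2 to 864.9. Among 8 fibroblast markers, which would show feeder cells, 5 were listed at 0 in both conditions (Col1a2, Col3a1, Dcn, Lum and Postn), and the 8 summed to 7.05 in q1 and 13.6 in q2, nearly all of it Thy1. Summed endoderm markers were 1.90 and 1.52, mesoderm markers 2.90 and 5.16, trophectoderm markers 3.83 and 0.632, and neuroectoderm markers 86.1 and 95.1, most of the last from Tubb3. The part of other cell types in the differences below was not tested, and in bulk RNA fewer cells of a type and less RNA per cell cannot be told apart.

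**Figure D1:**
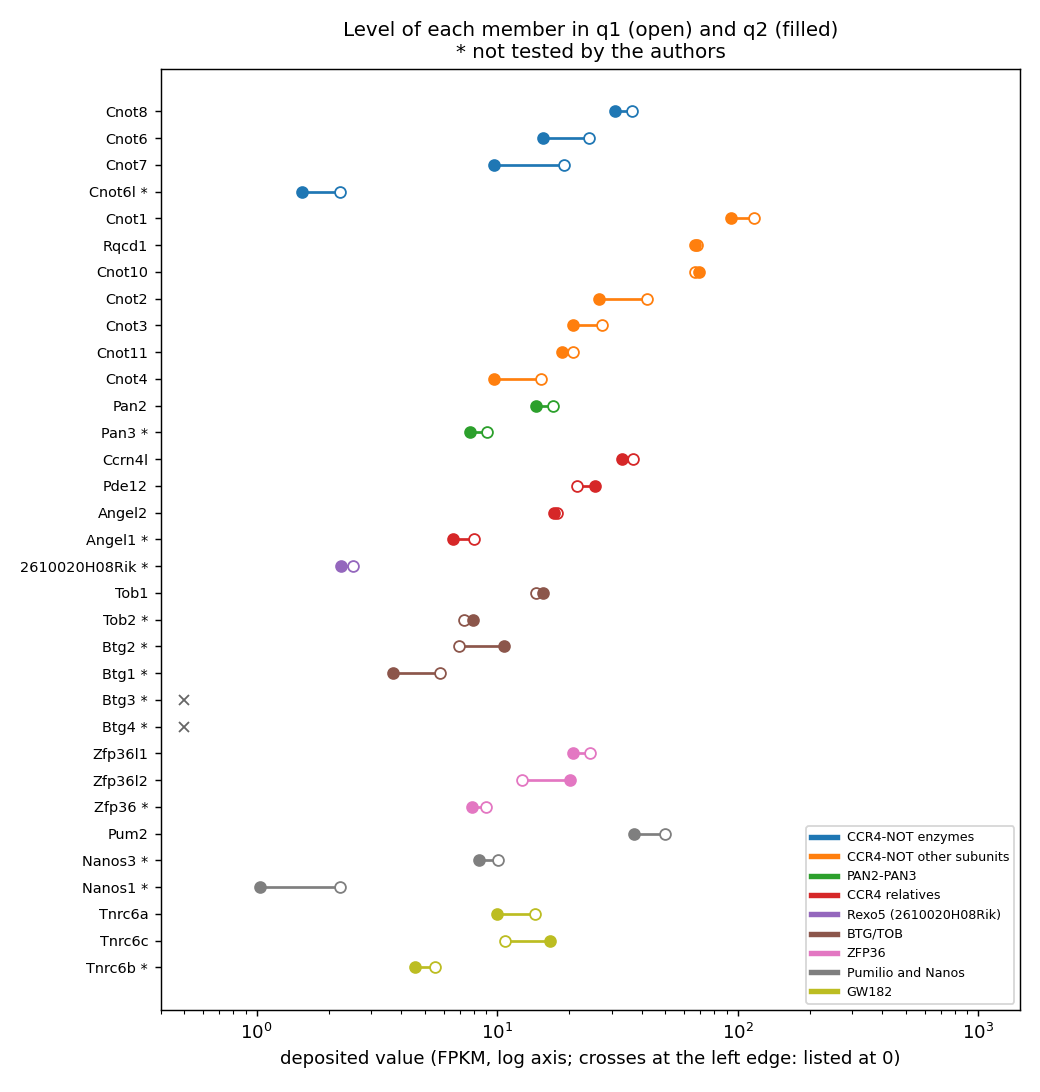
Deposited value (FPKM, log axis) of each member in q1 (open circle) and q2 (filled circle), grouped by role, with an asterisk for members that were not tested and crosses for Btg3 and Btg4, listed at 0. Cnot1 is the most abundant member, with 116.6 in q1 and 94.2 in q2, and most filled circles of the CCR4-NOT subunits lie to the left of the open ones.

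Several members themselves carry sequences that members bind. Pumilio proteins bind an 8-base element, TGTANATA, in 3′ untranslated regions. On the transcript strand of the representative 3′ untranslated region it was found in 10 of the 33 members, and 6 of these were tested: Cnot1, Cnot2, Cnot7, Cnot8, Cnot11 and Pum2, which has 2 copies. All 6 had the larger value in q1, with a median log2 ratio of -0.37, and the 14 tested members without the element had a median of -0.10, with 9 of 14 larger in q1. Over all tested protein-coding genes, 59.9% with the element and 40.7% without it were larger in q1. Over all members, tested or not, the 10 with it had longer 3′ untranslated regions, 2234 nt against 1303 nt at the median. Those medians do not describe the tested members. The 6 tested ones with it had 949 (Cnot1), 951 (Cnot7), 1006 (Cnot8), 1034 (Cnot2), 1623 (Cnot11) and 2861 nt (Pum2). The 14 tested members without it ran from 283 (Cnot3) to 5567 nt (Pde12). With the trend in length and GC subtracted, the ratios of the 6 ran from -0.68 (Cnot7) to -0.08 (Pum2) and -0.01 (Cnot1). The sites of these 6 are given in 30 bases each, 5′ to 3′ on the strand of the gene, from GENCODE M21 on GRCm38, with the element in capitals.
Cnot1, chr8:95720159-95720188 (-): ttttgaacttgTGTAAATAtatgaaagaga
Cnot2, chr10:116485483-116485512 (-): atgtacgaatgTGTATATAttatatatatg
Cnot7, chr8:40493920-40493949 (-): acacacatgctTGTATATAggttttatcat
Cnot8, chr11:58118528-58118557 (+): tttaagatgctTGTAAATAttatttatgtt
Cnot11, chr1:39546846-39546875 (+): aacagctgaaaTGTAAATAaaataatttac
Pum2, chr12:8750154-8750183 (+): gtttatagagaTGTATATAgaattatagtt
Pum2, chr12:8750407-8750436 (+): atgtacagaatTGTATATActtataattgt

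The same element was found in 1238 of the tested protein-coding genes (22.8%). Their median log2 ratio was -0.10 and that of the 4184 genes without it was 0.09, and 46 genes with the element passed the test higher in q1 and 12 higher in q2, against 63 and 100 without it. Genes with the element also had longer 3′ untranslated regions, 1650 nt against 655 nt at the median, and their median was 0.00 once the trend in length and GC, described further on, was subtracted. A match of the letters is a description and not a measured binding site.

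ZFP36 proteins bind AU-rich elements, for which the nonamer TTATTTATT was searched in the same way. It was found in 5 of 33 members: all 3 genes of the ZFP36 family, Ccrn4l and Cnot6l. Of these, 3 were tested (Zfp36l1, Zfp36l2 and Ccrn4l), with a median log2 ratio of -0.15, against -0.24 for the 17 tested members without it. The nonamer occurs in 308 of the tested protein-coding genes (5.68%), with a median log2 ratio of -0.09, against 0.06 for the other 5114. Genes with it had longer 3′ untranslated regions, 1777 nt against 776 nt at the median, and with the trend in length and GC subtracted the sign turned, to a median of 0.027 with the nonamer and -0.0045 without. The 3 family genes therefore hold in their own 3′ untranslated regions the letters that their proteins recognise, and they are shown with Ccrn4l, with the nonamer in capitals and the same annotation and build.
Zfp36, chr7:28376951-28376979 (-): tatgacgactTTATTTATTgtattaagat
Zfp36l1, chr12:80108167-80108195 (-): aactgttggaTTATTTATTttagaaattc
Zfp36l2, chr17:84184914-84184942 (-): actatttaacTTATTTATTatcttgtgaa
Ccrn4l, chr3:51250858-51250886 (+): tcatttcaagTTATTTATTtgtgggattt

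The catalytic subunits of CCR4-NOT all had the larger value in q1, and none passed. Cnot7 (GRCm38 chr8:40492540-40515847, minus strand), one of the CAF1-type nucleases, had 18.9 in q1 and 9.69 in q2, about 69.2 and 41.5 read equivalents. That log2 ratio of -0.96 is a 1.95-fold difference, the widest among tested members (p = 0.033, q = 0.213 in the authors' deposited table). Its partner Cnot8 (chr11:58104153-58118594, plus strand) had 36.3 and 30.8, a log2 ratio of -0.24 (q = 0.665 in the authors' deposited table). Cnot8 was therefore the more abundant of the pair per length in both conditions, with 65.8% of their sum in q1 and 76.1% in q2. Cnot7 overlaps Zdhhc2 on the other strand, which had 2.26 in q1 and 0.875 in q2, and Vps37a, which had 3.45 and 4.14. A stretch of 36.2% of the Cnot8 transcript recurs in the processed pseudogene Gm18860. The values of Cnot7 and Cnot8 therefore both carry the limit of shared reads. The difference between the ratios of Cnot7 and Cnot8 was not tested, since no single-library values are given.

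The RNA of the CCR4-type nucleases was mostly Cnot6. Cnot6 (chr11:49671503-49712723, minus strand) had 24.0 in q1 and 15.5 in q2, a log2 ratio of -0.63 (p = 0.0466, q = 0.258 in the authors' deposited table). Cnot6l, its paralogue, had 2.21 and 1.54 and was not tested. Cnot6 made up 91.6% of the pair's sum in q1 and 91.0% in q2, and both paralogues had the larger value in q1. Summed, the CCR4 pair was 26.2 and 17.0 (log2 ratio -0.62) and the CAF1 pair 55.2 and 40.5 (log2 ratio -0.45).

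Of the 7 other CCR4-NOT subunits, all were tested, 6 had the larger value in q1, and the median log2 ratio was -0.31, or -0.19 with the length and GC trend subtracted. Cnot1 (chr8:95719451-95807464, minus strand), the scaffold on which the complex is built, had 116.6 in q1 and 94.2 in q2, about 1253 and 1183 read equivalents (log2 ratio -0.31, p = 0.048, q = 0.262 in the authors' deposited table). It was the most abundant member in both conditions, at rank 702 of all genes in q1 and 1016 in q2. Its read equivalents were the most of any member. A stretch of 10.8% of its transcript recurs in the processed pseudogene Gm6158.

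Cnot2 and Cnot3 form the NOT module at the carboxy-terminal end of the scaffold. Cnot2 (chr10:116485161-116581511, minus strand) had 42.1 in q1 and 26.6 in q2, a log2 ratio of -0.66, with the lowest p in the complex (p = 0.00815, q = 0.104 in the authors' deposited table). Cnot3 (chr7:3645268-3661109, plus strand) had 27.4 and 20.6, a log2 ratio of -0.41 (p = 0.137, q = 0.423 in the authors' deposited table). Both were larger in q1, and neither passed. A stretch equal to 39.5% of the Cnot3 transcript recurs at 95% identity or more in the processed pseudogene Gm9207, so reads of the pair may be shared.

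Cnot4, an E3 ubiquitin ligase that is only loosely attached to the complex in mammals, had 15.2 in q1 and 9.69 in q2, a log2 ratio of -0.65 (p = 0.048, q = 0.262 in the authors' deposited table). The remaining subunits were near equal in the conditions. Rqcd1 (Cnot9), the subunit with pockets for the tryptophans of GW182 proteins, had 67.8 and 66.6 (log2 ratio -0.03, q = 0.963 in the authors' deposited table). Usp37 overlaps Rqcd1 on the other strand, with 20.3 in q1 and 16.0 in q2. Cnot10 and Cnot11 form a module at the amino-terminal end of the scaffold: Cnot10 had 66.4 and 69.4 (log2 ratio 0.06, q = 0.884 in the authors' deposited table), the only tested subunit larger in q2. Cnot11 had 20.6 and 18.7 (log2 ratio -0.14, q = 0.819 in the authors' deposited table).

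As a whole, CCR4-NOT has 11 members here, of which 10 were tested and 5 had an unadjusted p under 0.05, all larger in q1. Over all tested genes, 8.29% had such a p and the larger value in q1. The deposited p belongs to the ratios before any trend in length and GC was subtracted. With it subtracted, the 5 were at -0.01 (Cnot1), -0.32 (Cnot4), -0.48 (Cnot2), -0.54 (Cnot6) and -0.68 (Cnot7). The median log2 ratio of the 10 was -0.36, and the values of the 11 summed to 437 in q1 and 363 in q2. The ratios were not uniform among subunits: Cnot10 and Rqcd1 lay near 0, and Cnot2, Cnot4, Cnot6 and Cnot7 between -0.63 and -0.96. Per length, Cnot1, Cnot10 and Rqcd1 were the 3 most abundant subunits in both conditions, each above every nuclease subunit.

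**Figure D2:**
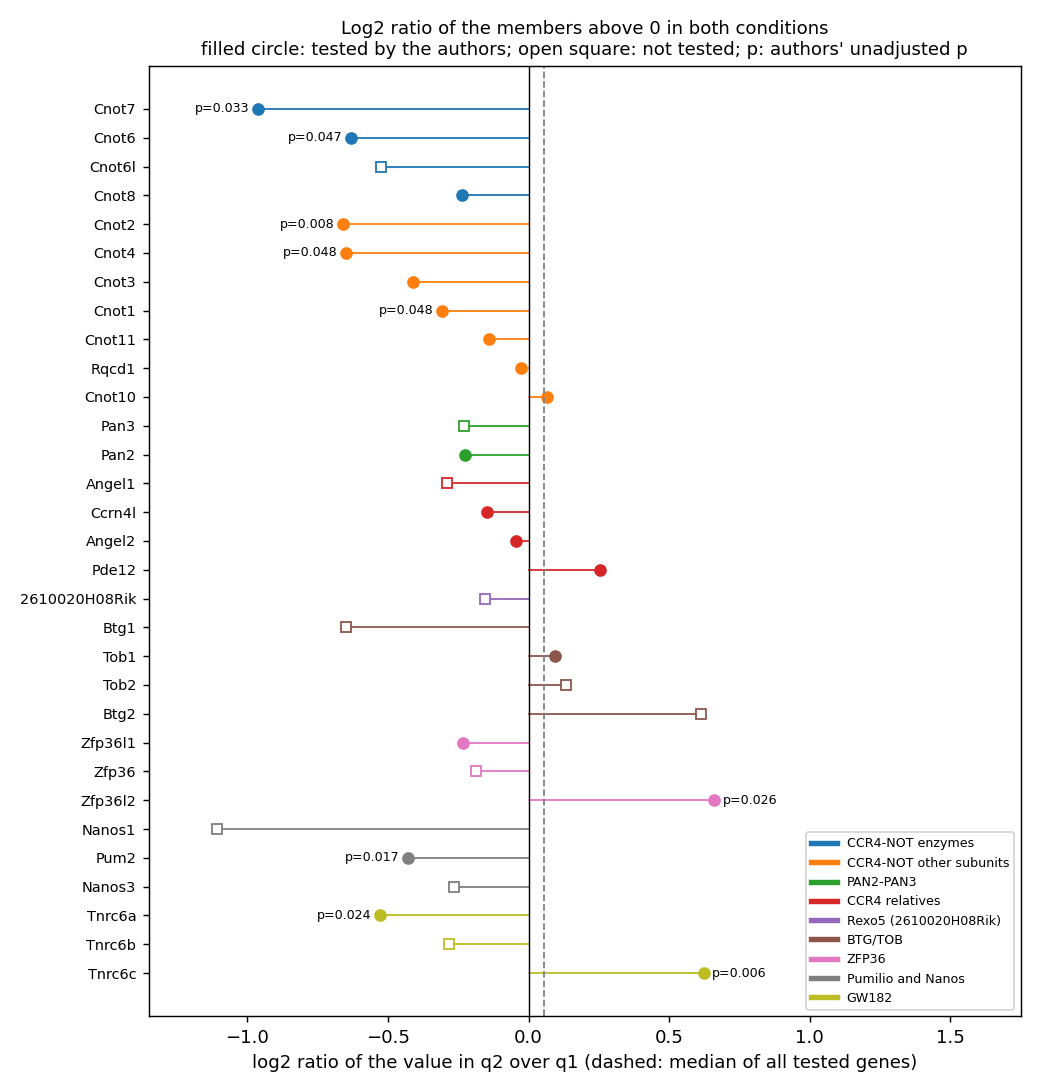
Log2 ratio of the q2 over the q1 value for the 31 members above 0 in both conditions (filled circle, tested; open square, not tested), with unadjusted p under 0.05 written beside the point and the median of all tested genes dashed. Members of CCR4-NOT lie mostly left of 0, down to -0.96 for Cnot7, and adaptors lie on both sides.

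Both genes of PAN2-PAN3 had the larger value in q1, and their proportions were the same in both conditions. Pan2 (chr10:128303335-128321358, plus strand), the nuclease, had 17.0 in q1 and 14.5 in q2, a log2 ratio of -0.23 (p = 0.393, q = 0.673 in the authors' deposited table). Pan3, which binds the poly(A)-binding protein and anchors Pan2, had 9.06 and 7.72 and was not tested, also with a log2 ratio of -0.23. Pan2 made up 65.3% of the sum of the pair in both conditions. That sum was 26.1 in q1 and 22.3 in q2, beside 26.2 and 17.0 for the CCR4 pair.

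Of the 4 relatives of CCR4 outside the complex, 3 had the larger value in q1 and 1 in q2, and none of the 3 that were tested passed or had an unadjusted p under 0.05. Ccrn4l (chr3:51224447-51251644, plus strand) encodes nocturnin, a rhythmically expressed protein first described as a deadenylase and later as a phosphatase of NADP(H). It had 36.8 in q1 and 33.2 in q2, a log2 ratio of -0.15 (q = 0.764 in the authors' deposited table). Angel2, a phosphatase of cyclic RNA ends, had 17.8 and 17.2 (log2 ratio -0.04, q = 0.951 in the authors' deposited table), and its untested paralogue Angel1 had 7.99 and 6.53. Pde12, a mitochondrial enzyme that removes poly(A) and cleaves 2′-5′ oligoadenylate, was the only one of these larger in q2.

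Pde12 (chr14:26659958-26669883, minus strand) had 21.5 in q1 and 25.6 in q2, about 213 and 297 read equivalents, a log2 ratio of 0.25 (p = 0.308, q = 0.602 in the authors' deposited table). It overlaps Arf4 on the other strand, with 48.9 and 42.5, and holds the microRNA gene Mir7672 on its own strand, listed at 0 in q1 and 628 in q2 (q = 0.544 in the authors' deposited table). The sources used here do not say whether counting used strand, and the part of either neighbour in the value of Pde12 was not tested. 2610020H08Rik (Rexo5), an RNA exonuclease not known as part of either complex, had 2.51 and 2.25, about 6 read equivalents in each condition, and was not tested.

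Of 15 adaptors 6 were tested, 3 with the larger value in each direction, with a median log2 ratio of -0.07. Over the 13 adaptors above 0 in both conditions, tested or not, 8 were larger in q1 and 5 in q2, with a median of -0.23. Those of the 6 with an unadjusted p under 0.05 were 2 larger in q1 (Pum2 and Tnrc6a) and 2 larger in q2 (Zfp36l2 and Tnrc6c). Over all tested genes the shares were 8.29% and 10.5%. Of the tested CCR4-NOT subunits 9 were larger in q1 and 1 in q2; the difference between subunits and adaptors was not tested.

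BTG and TOB proteins bind CNOT7 and CNOT8 and promote general deadenylation; TOB proteins also bind the poly(A)-binding protein. Tob1 (chr11:94211454-94215495, plus strand) had 14.5 in q1 and 15.5 in q2, a log2 ratio of 0.09 (q = 0.912 in the authors' deposited table). Tob2 had 7.28 and 7.98 and was not tested. The 2 TOB genes thus differed little, and Tob1 made up 66.6% and 66.0% of their sum.

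Btg1 and Btg2 pointed in opposite directions at low levels, and neither was tested. Btg1 had 5.81 in q1 and 3.70 in q2, about 36.7 and 27.4 read equivalents, and Btg2 had 6.97 and 10.7, about 23.3 and 41.7. The share of Btg2 in their sum was 54.5% in q1 and 74.2% in q2, with no test. Btg3 and Btg4, the latter an oocyte protein needed for clearance of maternal mRNA, were listed at 0 in both conditions. The value of Btg3 is uncertain, since 53.5% of its transcript recurs at 100% identity in the processed pseudogene Gm7334, which is also listed at 0 in both.

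Among the RNAs of the ZFP36 family, the most abundant per length in both conditions was Zfp36l1 and the one with the widest difference was Zfp36l2. Zfp36l2 (chr17:84183931-84187947, minus strand) had 12.7 in q1 and 20.1 in q2, about 55.6 and 103 read equivalents, a log2 ratio of 0.66 (p = 0.0262, q = 0.190 in the authors' deposited table). Zfp36l1 (chr12:80107754-80113013, minus strand) had 24.3 and 20.7, a log2 ratio of -0.23 (q = 0.673 in the authors' deposited table), and Zfp36 had 8.98 and 7.89 and was not tested. Zfp36l1 and Zfp36l2 were near level in q2, with 42.5% and 41.2% of the family's sum, against 52.9% and 27.6% in q1. The sum itself was 45.9 and 48.6 (log2 ratio 0.08). Each of the 3 genes is overlapped by a noncoding RNA gene on the other strand: Gm26669 at Zfp36l1, AC132455.1 at Zfp36l2 and Gm44710 at Zfp36. Their values carry the same limit on strand as that of Pde12.

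Pum2 (chr12:8674134-8752581, plus strand), whose protein binds the element printed above, had 49.7 in q1 and 36.9 in q2, about 394 and 342 read equivalents, a log2 ratio of -0.43 (p = 0.017, q = 0.159 in the authors' deposited table). Pum2 did not pass. Nanos1 and Nanos3, of a family of Pumilio partners, were not tested: Nanos1 had 2.23 and 1.03, about 10.9 and 5.9 read equivalents, and Nanos3 had 10.1 and 8.44, about 7.1 and 6.9.

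GW182 proteins (TNRC6) join Argonaute and its microRNA to CCR4-NOT and PAN2-PAN3. Tnrc6a (chr7:123123885-123195296, plus strand) had 14.4 in q1 and 9.96 in q2, about 151 and 122 read equivalents, a log2 ratio of -0.53 (p = 0.024, q = 0.185 in the authors' deposited table). Tnrc6c (chr11:117654289-117763439, plus strand) had 10.8 and 16.6, about 123 and 221 read equivalents, a log2 ratio of 0.62, with the lowest q among the members (p = 0.00565, q = 0.0855 in the authors' deposited table). Tnrc6b, not tested, had 5.52 and 4.54, a log2 ratio of -0.28. The most abundant of the 3 per length was Tnrc6a in q1 and Tnrc6c in q2.

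The summed GW182 value was 30.7 in q1 and 31.1 in q2, a log2 ratio of 0.02. Tnrc6a made up 46.8% of it in q1 and 32.0% in q2, and Tnrc6c 35.2% and 53.4%. No near-identical stretch of at least 100 bases is shared between any 2 members, the GW182 genes included. Tnrc6a is overlapped on its own strand by the noncoding RNA gene Gm45846, with 146 bases shared, and the part of Gm45846 in its value was not tested. A test of the difference between Tnrc6a and Tnrc6c needs single-library values and was not made.

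**Figure D3:**
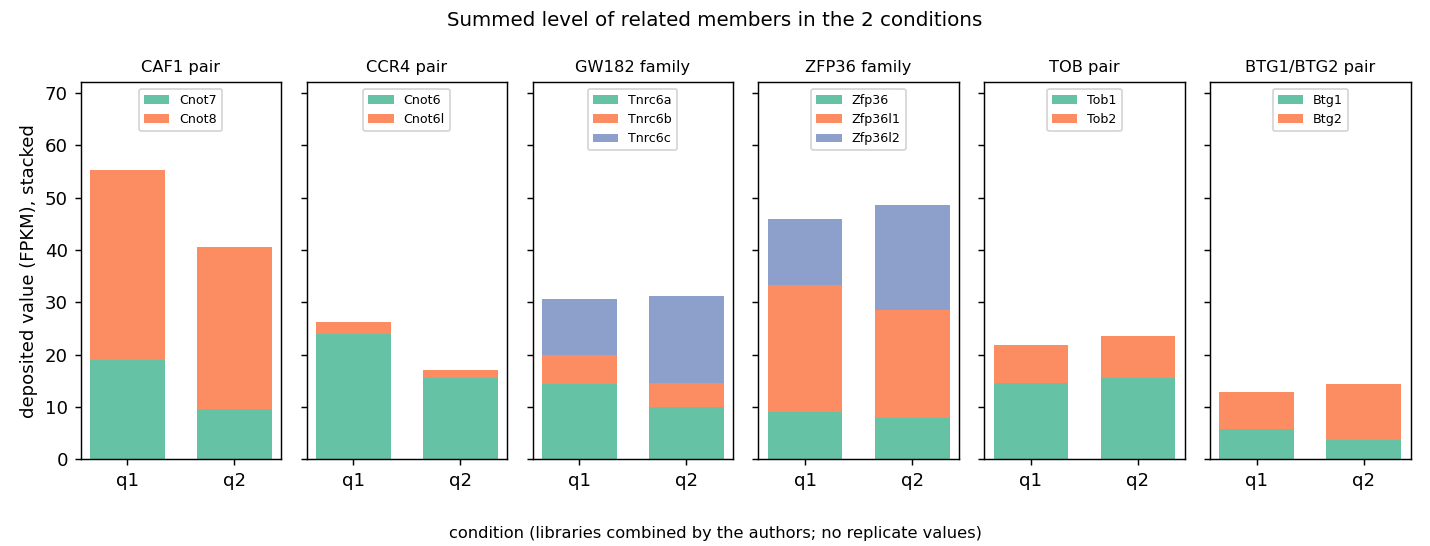
Stacked deposited values (FPKM) of related members in q1 and q2, with no error bars since no replicate values are given. The GW182 bars are level, at 30.7 and 31.1, with a wider Tnrc6c segment in q2, and the bars of the CAF1 and CCR4 pairs are shorter in q2.

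Because Tnrc6a and Tnrc6c had ratios of opposite sign, their promoters are shown, from 250 bases before to 50 after the start, 5′ to 3′ on the gene's strand, from RefSeq on GRCm38.p6, with CpG in capitals. Tnrc6a has 11 CpG and 44.7% GC, and Tnrc6c 40 CpG and 71.3% GC. Over all 32851 promoters of the table the median is 7 CpG, and over the 29 members with an entry it is 26, from 1 (Btg4) to 49 (Cnot6l).
Tnrc6a, chr7:123123635-123123934 (+): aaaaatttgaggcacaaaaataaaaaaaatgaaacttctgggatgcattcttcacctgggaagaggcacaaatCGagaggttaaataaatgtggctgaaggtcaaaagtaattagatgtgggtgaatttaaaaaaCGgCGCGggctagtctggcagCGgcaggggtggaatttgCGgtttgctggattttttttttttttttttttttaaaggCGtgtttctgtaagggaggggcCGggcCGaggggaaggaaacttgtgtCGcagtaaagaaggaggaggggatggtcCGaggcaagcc
Tnrc6c, chr11:117654039-117654338 (+): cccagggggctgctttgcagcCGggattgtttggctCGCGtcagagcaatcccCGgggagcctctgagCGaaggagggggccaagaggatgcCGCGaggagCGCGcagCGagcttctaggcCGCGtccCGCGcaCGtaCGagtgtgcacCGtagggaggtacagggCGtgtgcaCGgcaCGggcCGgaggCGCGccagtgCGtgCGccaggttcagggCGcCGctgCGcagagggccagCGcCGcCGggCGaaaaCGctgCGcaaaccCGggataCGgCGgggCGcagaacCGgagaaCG

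Of motifs searched on both strands of these windows, CCGGAAG, the core bound by ETS factors, was found in 7 of 29 members and in 8.86% of all promoters. TATAAA was found in 4 members and in 13.6% of all promoters. TGACGTCA was found in Btg2 alone among members (1.79% of all promoters), CACGTG in Cnot4 alone (7.15%), and AAGATGGCG in Cnot3 alone (1.40%). Members and all promoters are unlike sets here too, as for CpG. Neither Tnrc6 promoter shown holds any of these letters, which says nothing of the factors.

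The deposited log2 ratios moved with transcript length over the whole table, and the members are longer than most genes. For 5467 tested protein-coding genes in 5 length bins of near-equal size, the median log2 ratio was 0.32 in the shortest bin, then 0.14, 0.03 and -0.02, and -0.17 in the longest. In the shortest bin 21.8% of genes were larger in q1, and in the longest 70.9%. The median transcript of the tested members was 3303 nt and that of all tested genes 2630 nt, with 0, 1, 8, 6 and 5 members in the bins from short to long.

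Set beside genes of their own length, the median member log2 ratio was -0.24 against 0.14 in the bin with 1 member, -0.32 against 0.03, -0.09 against -0.02, and -0.31 against -0.17. With the trend in length and GC content subtracted, the median over the 20 tested members was -0.20 in place of -0.23, and that of CCR4-NOT -0.30 in place of -0.36. Single members moved more. Cnot1 went from -0.31 to -0.01, Pum2 from -0.43 to -0.08, Cnot4 from -0.65 to -0.32 and Tnrc6a from -0.53 to -0.26, whereas Pde12 went from 0.25 to 0.60 and Tnrc6c from 0.62 to 0.67. Cnot7 (-0.68), Cnot3 (-0.62), Cnot6 (-0.54) and Cnot2 (-0.48) were then the lowest of the tested members.

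**Figure D4:**
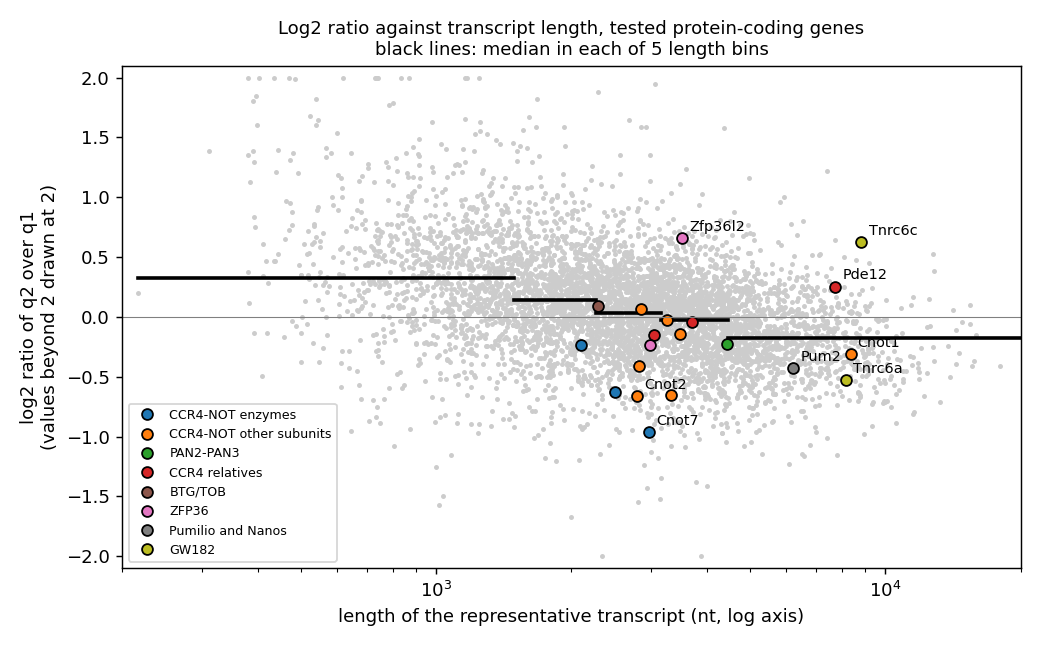
Log2 ratio of q2 over q1 against transcript length (log axis) for tested protein-coding genes (grey) and tested members (coloured by role), with the median in each length bin as black lines. The lines step down from 0.32 to -0.17, Cnot7 and Cnot2 lie below the line of their bin, and Tnrc6c, Zfp36l2 and Pde12 lie above theirs.

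Lists of genes that act beside the members, also chosen with earlier results of these data known, are given as a description. Among 11 poly(A)-binding and LARP proteins, 8 were tested and 2 passed, both higher in q1, where 4.25% of all tested genes passed in either direction. Pabpc1, the cytoplasmic poly(A)-binding protein on which PAN3 and TOB dock, was at 155.3 in q1 and 53.3 in q2, a log2 ratio of -1.54 (q = 0.00367 in the authors' deposited table), or -1.49 with the length and GC trend subtracted. Larp4, which binds poly(A) and protects tails, was at 34.4 and 21.7, a log2 ratio of -0.67 (q = 0.0255 in the authors' deposited table), or -0.21 with the trend subtracted. Pabpn1, the nuclear poly(A)-binding protein, did not pass, with 192 and 221 (log2 ratio 0.20), nor did Paip2, an inhibitor of the cytoplasmic protein, with 113 and 108 (log2 ratio -0.07). The median of the 8 was -0.34, and -0.21 with the trend subtracted.

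Among 13 genes of decapping and repression, which act after deadenylation, 10 were tested and 1 passed, where 4.25% of all tested genes passed in either direction. Ddx6, the helicase that docks on CNOT1, was at 52.2 in q1 and 29.5 in q2, a log2 ratio of -0.83 (q = 0.00367 in the authors' deposited table), or -0.57 with the trend subtracted. Lsm14a, Edc4 and Eif4enif1, the most abundant of the others, had log2 ratios of -0.21, 0.09 and 0.35 and did not pass. The median of the 10 was -0.11, and -0.041 with the trend subtracted.

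Of 20 other recruiters of deadenylases 9 were tested and none passed. An unadjusted p under 0.05 with the larger value in q1 was found for 1 of them, and for 8.29% of all tested genes. Their median was -0.19, and -0.026 with the trend subtracted, and Khsrp, Celf1 and Ythdf2 had log2 ratios of 0.16, -0.32 and -0.19. Of 8 enzymes that extend tails 3 were tested and none passed (none with an unadjusted p under 0.05). Papola, Papd5 and Papd7 had log2 ratios of -0.29, -0.37 and 0.04, and their median, -0.29, was -0.025 with the trend subtracted. In the PARN family, all 3 genes were tested and none passed (none with an unadjusted p under 0.05): Pnldc1 had 18.1 in q1 and 26.8 in q2, a log2 ratio of 0.56 (q = 0.399 in the authors' deposited table), Parn had -0.26 and Toe1 -0.05. The condition with esiRNA to Pnldc1 is not assigned from these values.

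**Figure D5:**
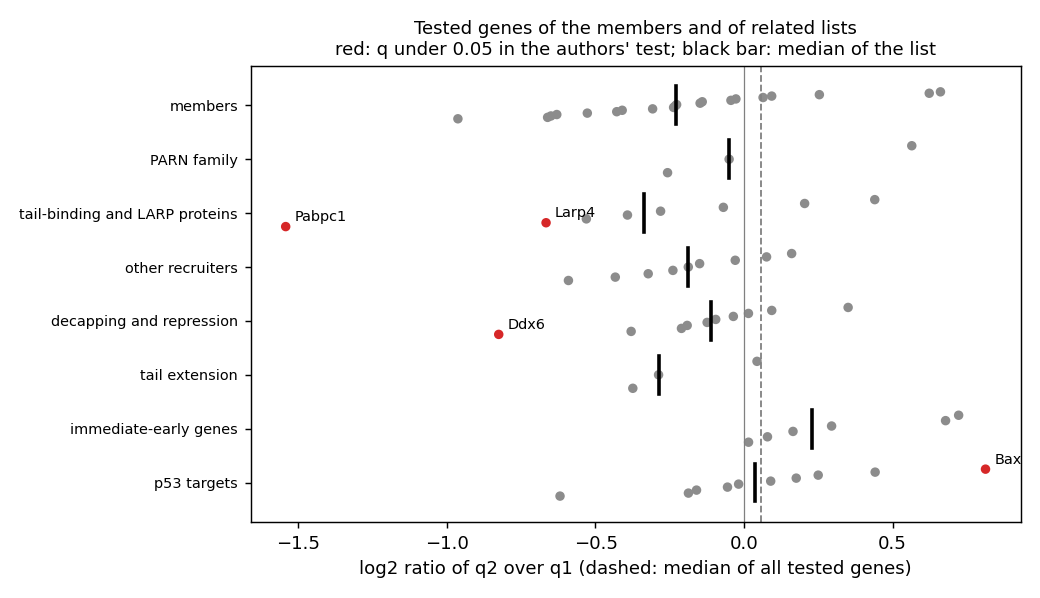
Log2 ratio of q2 over q1 for the tested genes of the members and of 7 related lists, with list medians as black bars and genes that passed at q under 0.05 in red. The passing genes are Pabpc1, Larp4 and Ddx6, higher in q1, and Bax, higher in q2, and no member is among them.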

How the data were processed

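RNA of E14 cells was sequenced in 4 libraries, 2 a group by their titles. Per the submitters' processing notes, TopHat and Cuffdiff were used with the builds mm10 and GRCm38.p4; the sources used here give neither versions nor annotation. Per the file headers, the authors deposited 1 expression value a gene and condition, taken as FPKM, a signed test score, a p-value and a q-value. The q-value equals a Benjamini-Hochberg adjustment of the p-value over 5719 tested genes to within 5.24e-07. The deposited log2 column held a spreadsheet error in 1055 cells, so the log2 ratio was computed again from the values.

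The authors' Cuffdiff test at q under 0.05 was the only gene test, since single libraries are not given and the depth per library is unknown. The lowest higher value among tested protein-coding genes was 14.0, and untested ones reached 27.9. Members and lists were chosen with earlier results of these data known. Read equivalents use the step in low values and transcript length less 200 nt. The trend with length and GC content was fitted on the 200 nearest tested genes and checked on simulated data. Lengths, sites and coordinates come from GENCODE M21 (GRCm38), promoters from RefSeq (GRCm38.p6), and near-identical copies (95% identity over 100 bases) from BLAST 2.17.0. Python 3.11.15 with numpy 2.4.6, pandas 2.3.3, scipy 1.17.1 and matplotlib 3.10.9 was used. In related lists, the genes named were those that passed, then those of highest mean, up to 4; 1 gene that the rule names is not reported here. Members were all described. The comparison planned was of the 2 esiRNAs; it could be given only as q2 against q1.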

Additional observations from a re-analysis of the deposited data

How the results depend on the processing

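No paired analysis was possible because the deposited table combines the libraries of each condition; for the same reason leaving out each library was not run. The count of members that passed was 0 at q under 0.05 and 0.01. A filter on values under 5 left all 5719 tested genes in place and so could change no call. It was 1 (Tnrc6c) at q under 0.10 and 9 at an unadjusted p under 0.05. The count over all genes, 243, became 107 at q under 0.01, 421 at q under 0.10 and 1074 at an unadjusted p under 0.05. The median log2 ratio of the tested members, -0.23, became -0.28 after centring on the median, -0.26 on upper quartiles, -0.22 as log2(value + 1) and -0.20 after subtraction of the length and GC trend. It became -0.15 over 13 tested members, an alternative chosen after seeing the data. These had no near-identical copy elsewhere over 5% or more of the transcript, and no overlapping gene listed above 0. Left out were Cnot1, Cnot3, Cnot6, Cnot7, Cnot8, Rqcd1 and Pde12, mostly CCR4-NOT subunits, so the make-up of the set changed too. Cnot6 was left out for Gm12191, at 0 in q1 and 0.000125 in q2. Zfp36l1, Zfp36l2 and Tnrc6a stayed, though each shares a stretch with an overlapping noncoding gene that is not listed. The median was -0.23 over all 31 members above 0 and over the 28 with a value of at least 5. Of single members, 2 of 31 took the other sign under trend subtraction, Angel2 at 0.11 and Tnrc6b at 0.059, and none under the other 3 scalings. Depth limits Rexo5, Nanos1 and Nanos3, at 11 read equivalents or fewer.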

Other observations

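Genes known to be short-lived or induced by stress were compared in the same table. Of 16 immediate-early genes 6 were tested, and all 6 had the larger value in q2, with a median log2 ratio of 0.23. So did 3166 of all 5719 tested genes. None of the 6 passed, and 1 had an unadjusted p under 0.05 with the larger value in q2, as had 10.5% of all tested genes. Over the 11 immediate-early genes above 0 in both conditions, tested or not, 8 were larger in q2 and 3 in q1, with a median of 0.08. The most abundant were Ier2, Myc, Junb and Jund, with log2 ratios of 0.16, 0.08, 0.68 and 0.29. Junb, a transcription factor of the AP-1 family and the one with the unadjusted p under 0.05, had 33.8 in q1 and 54.0 in q2 (q = 0.125 in the authors' deposited table). These are short transcripts, 1739 nt at the median, and after subtraction of the length and GC trend the median was -0.23. Of 14 target genes of p53, 10 were tested and 1 passed, where 4.25% of all tested genes passed in either direction. Bax, which promotes apoptosis, was at 220.5 in q1 and 387.4 in q2, a log2 ratio of 0.81 (q = 0.00608, authors' deposited table). Aen, Phlda3 and Ccng1, the most abundant of the others, had 0.25, 0.18 and -0.16 and did not pass. With the trend subtracted Bax was at 0.19, and the median of the 10 was 0.04 before and 0.18 after.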
